A study of Arabidopsis thaliana with 64 samples.

Results

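WRKY proteins are plant transcription factors that bind a short promoter element, the W-box, and the 30 WRKY genes described here were taken as a list of loci to follow the family through phosphate (Pi) deficiency. These 30 were chosen with earlier results of these data known. Their counts beside all genes therefore describe this list and do not test the family. They are 30 of the 72 WRKY genes in the annotation and 30 of the 26716 Arabidopsis genes that had a probe on the array, and all 30 had at least 1 probe. Their levels were read in all 64 arrays, each hybridised with RNA of 1 sample of roots or shoots, in 3 sets of plants, with the accession Col-0 as WT throughout. The first white-light set held hy5-215, a mutant of the light-signalling bZIP factor HY5 made by ethyl methanesulfonate mutagenesis, and its own WT. The second held 35S:BBX32-SRDX, in which the constitutive 35S promoter drives the B-box protein BBX32 fused to the SRDX repression domain, so that the fusion is not limited to cells that normally express BBX32, again with its own WT. The third held WT seedlings under blue or red light. By the labels, plants of every group were grown on MS-based agar at 23 °C with 16 h of light and 8 h of dark, on Pi-deficient or Pi-sufficient medium; the study's methods give a slightly different temperature and continuous illumination for the blue and red treatments. The plants were 4 weeks old in the white-light sets and 3 weeks old in the light-quality set. Each combination had 3 biological replicates in white light (24 arrays per set) and 2 under blue or red light (16 arrays), and the shoot samples of the white-light sets were labelled as leaf.

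A few WRKY genes work downstream of salicylic acid, the hormone of resistance to biotrophic pathogens: WRKY70, WRKY54, WRKY46 and WRKY53 with WRKY38 and WRKY62 in structural group III, and WRKY50 and WRKY51 in group IIc, which take part in the repression of jasmonate responses by salicylic acid. WRKY18, WRKY40 and WRKY60 form group IIa, pair with each other and modulate defence and abscisic acid responses. WRKY33, with WRKY25 and WRKY26 in group I, acts below mitogen-activated protein kinases and switches on the synthesis of camalexin, an antimicrobial indole compound. WRKY22 and WRKY29 of group IIe are outputs of the kinase cascade that acts after bacterial flagellin is perceived. WRKY45 and WRKY42 are the Pi-linked members, the first an activator of the Pi transporter gene PHT1;1 and the second a regulator of PHT1;1 and of PHO1, which exports Pi to the xylem. WRKY7, WRKY11, WRKY15, WRKY17 and WRKY39 belong to the calmodulin-binding group IId, and WRKY23 is an auxin-inducible gene of root development.

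Levels are given as log2 of the array signal relative to the 75th percentile of all probes on the same array, so 0 is the level of that percentile and a difference of 1 is a factor of 2. The brightness of different probes was not compared between genes. A gene was called where limma gave a Benjamini-Hochberg adjusted p below 0.05 over all genes tested in that comparison, with a fold over 2 or under 0.5; interactions were called on the adjusted p alone. A probe that was not well above background on any array of a group has only a bound there, and its change is given as at least a given fold. Calling on fold and adjusted p favours groups that are apart. Statements that groups did not overlap therefore describe the arrays and add no support. The share of such genes over all genes was not counted. Of the 30 members, 22 to 30 were well above background on a white-light array and 14 to 28 on an array of the light-quality set, in which the 75th percentile of the signal was 79.5 to 267, against 2428 to 7700 in white light. The targeted genes were checked first. HY5 was lower in hy5-215 roots than in WT roots, by 2.05 on Pi-deficient and 1.91 on Pi-sufficient medium on the log2 scale, but in shoots labelled hy5-215 its signal differed from WT by -0.03 at both Pi levels, so the probe did not tell those shoots from WT. BBX32 was higher in 35S:BBX32-SRDX than in WT by 10.35 and 10.64 in roots and by 8.21 and 8.86 in shoots. Defining markers fitted the organ labels: 4 of 4 photosynthetic shoot markers were lower and 5 of 5 root markers higher in WT roots than in WT shoots. WRKY54 and WRKY55 are neighbours on chromosome 2.

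Whether the 2 lines differed from WT in WRKY expression was asked first in Pi-deficient roots. In hy5-215 roots, WRKY70, WRKY55 and WRKY41 were higher and WRKY60 was lower than in WT. The 4 calls among 30 members stand against 6.08% of all genes tested (2.91% higher and 3.17% lower). Against their own WT, roots of 35S:BBX32-SRDX had higher WRKY62, WRKY70, WRKY51, WRKY54, WRKY55 and WRKY50 and lower WRKY60 and WRKY8, 8 of 30 members, against 5.23% of all genes (2.53% higher and 2.69% lower). Over all 30 members the median difference was 0.18 in hy5-215 and 0.27 in 35S:BBX32-SRDX, beside -0.00 and 0.03 over all genes.

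WRKY70 (AT3G56400), which promotes salicylic acid responses and restrains jasmonate responses, had levels of 1.87, 1.39 and 1.11 in Pi-deficient hy5-215 roots, against 0.02, -0.16 and -0.30 in WT. Roots of 35S:BBX32-SRDX had 2.18, 1.58 and 1.78, against -0.31, -0.17 and 0.04 in WT. Every array of either line was above every array of its WT, and the difference was 1.60 (SE 0.33, adjusted p = 0.00793) in hy5-215 and 2.0 (SE 0.18, adjusted p = 0.000182) in 35S:BBX32-SRDX. Replicates of one number shared a slide, and within the 3 slides the difference was 1.84, 1.55 and 1.41 in hy5-215 and 2.49, 1.76 and 1.75 in 35S:BBX32-SRDX.

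WRKY62 (AT5G01900), a salicylic acid-inducible factor that dampens basal defence, was the member furthest from WT in 35S:BBX32-SRDX roots, with -1.19, -3.74 and -2.85 against -7.61, -5.84 and -6.05 in WT. The difference was 3.91 (SE 0.87, adjusted p = 0.0174), with no overlap between the groups but a wide spread among the arrays of the line. Without 35S:BBX32-SRDX replicate 1 it was 3.21 (adjusted p = 0.0636), and without WT replicate 1 it was 3.35 (adjusted p = 0.0643). In hy5-215 roots WRKY62 had -2.44, -3.21 and -3.97, against -3.74, -5.15 and -5.29 in WT, so that the highest WT array lay above the lowest hy5-215 array. It was not called there, but with the slide as a block it was (1.52, SE 0.37, adjusted p = 0.0176).

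WRKY51 (AT5G64810) and WRKY50 (AT5G26170), the group IIc pair of jasmonate repression, were both higher in 35S:BBX32-SRDX roots. WRKY51 had 0.11, -0.80 and -0.39 in the line, against -3.17, -1.87 and -1.83 in WT, a difference of 1.93 (SE 0.48, adjusted p = 0.0285). The groups did not overlap, but the call was lost in 4 of 12 fits that each left out 1 array: 35S:BBX32-SRDX replicate 1 (1.69, adjusted p = 0.105) or 3 (1.94, adjusted p = 0.0742), and WT replicate 1 (1.49, adjusted p = 0.091) or 2 (2.14, adjusted p = 0.0517). WRKY50 had -5.77, -5.82 and -5.36 in the line, against -7.38, -6.81 and -6.36 in WT (1.2, SE 0.24, adjusted p = 0.0108). In hy5-215 roots WRKY51 had -0.11, -0.24 and -0.91, against -0.73, -1.33 and -2.27 in WT, and it was called only with the slide as a block (1.03, SE 0.23, adjusted p = 0.0112). That fit called 6.75% of all genes.

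WRKY54 (AT2G40750), the closest relative of WRKY70, had -1.44, -1.79 and -1.99 in 35S:BBX32-SRDX roots, against -3.57, -2.89 and -3.17 in WT (1.46, SE 0.24, adjusted p = 0.00343). Its neighbour WRKY55 (AT2G40740), linked to leaf senescence and salicylic acid accumulation, had -5.72, -5.44 and -5.65, against -6.95, -6.62 and -6.94 in WT (1.23, SE 0.16, adjusted p = 0.00119). In hy5-215 roots WRKY55 had -6.73, -5.61 and -5.88, against -7.97, -7.55 and -6.94 in WT (1.42, SE 0.44, adjusted p = 0.0498). The lines stood above their WT on every array, but in the hy5-215 set 1 of 3 WT arrays was well above background and the call was lost in 8 of 12 fits that each left out 1 array (1.17 to 1.42, adjusted p 0.0527 to 0.16). WRKY41 (AT4G11070), a group III factor of defence and seed dormancy, had -3.94, -3.56 and -4.60 in hy5-215 roots, against -5.24, -4.86 and -5.54 in WT (1.18, SE 0.32, adjusted p = 0.0296), and lost the call without hy5-215 replicate 1 or 2 or WT replicate 1 or 3 (0.95 to 1.17).

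The members lower in the lines were WRKY60 and WRKY8. WRKY60 (AT2G25000), the group IIa partner of WRKY18 and WRKY40, had -0.16, -0.78 and -0.56 in hy5-215 roots, against 0.49, 0.51 and 0.58 in WT (-1.03, SE 0.14, adjusted p = 0.000933). Roots of 35S:BBX32-SRDX had 0.05, -0.21 and -0.81, against 0.87, 0.86 and 0.53 in WT (-1.08, SE 0.28, adjusted p = 0.0328). Both lines were below WT on every array, with effects that differed by 0.05 (SE 0.33, adjusted p = 1), and the call was lost without replicate 2 or 3 of the hy5-215 line (-0.89 and -0.998, under the fold limit). In the 35S:BBX32-SRDX set it was lost in 6 of 12 fits that each left out 1 array (-0.84 to -1.19, adjusted p 0.0512 to 0.109), among them each of the 3 WT arrays. WRKY8 (AT5G46350), known from salt and virus responses, had -5.01, -5.53 and -5.24 in Pi-deficient 35S:BBX32-SRDX roots, against -3.90, -4.02 and -4.31 in WT (-1.19, SE 0.25, adjusted p = 0.0134). Left out singly, 35S:BBX32-SRDX replicate 2 (-1.05, adjusted p = 0.0506) or WT replicate 2 (-1.16, adjusted p = 0.0512) ended that call.

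**Figure D1:**
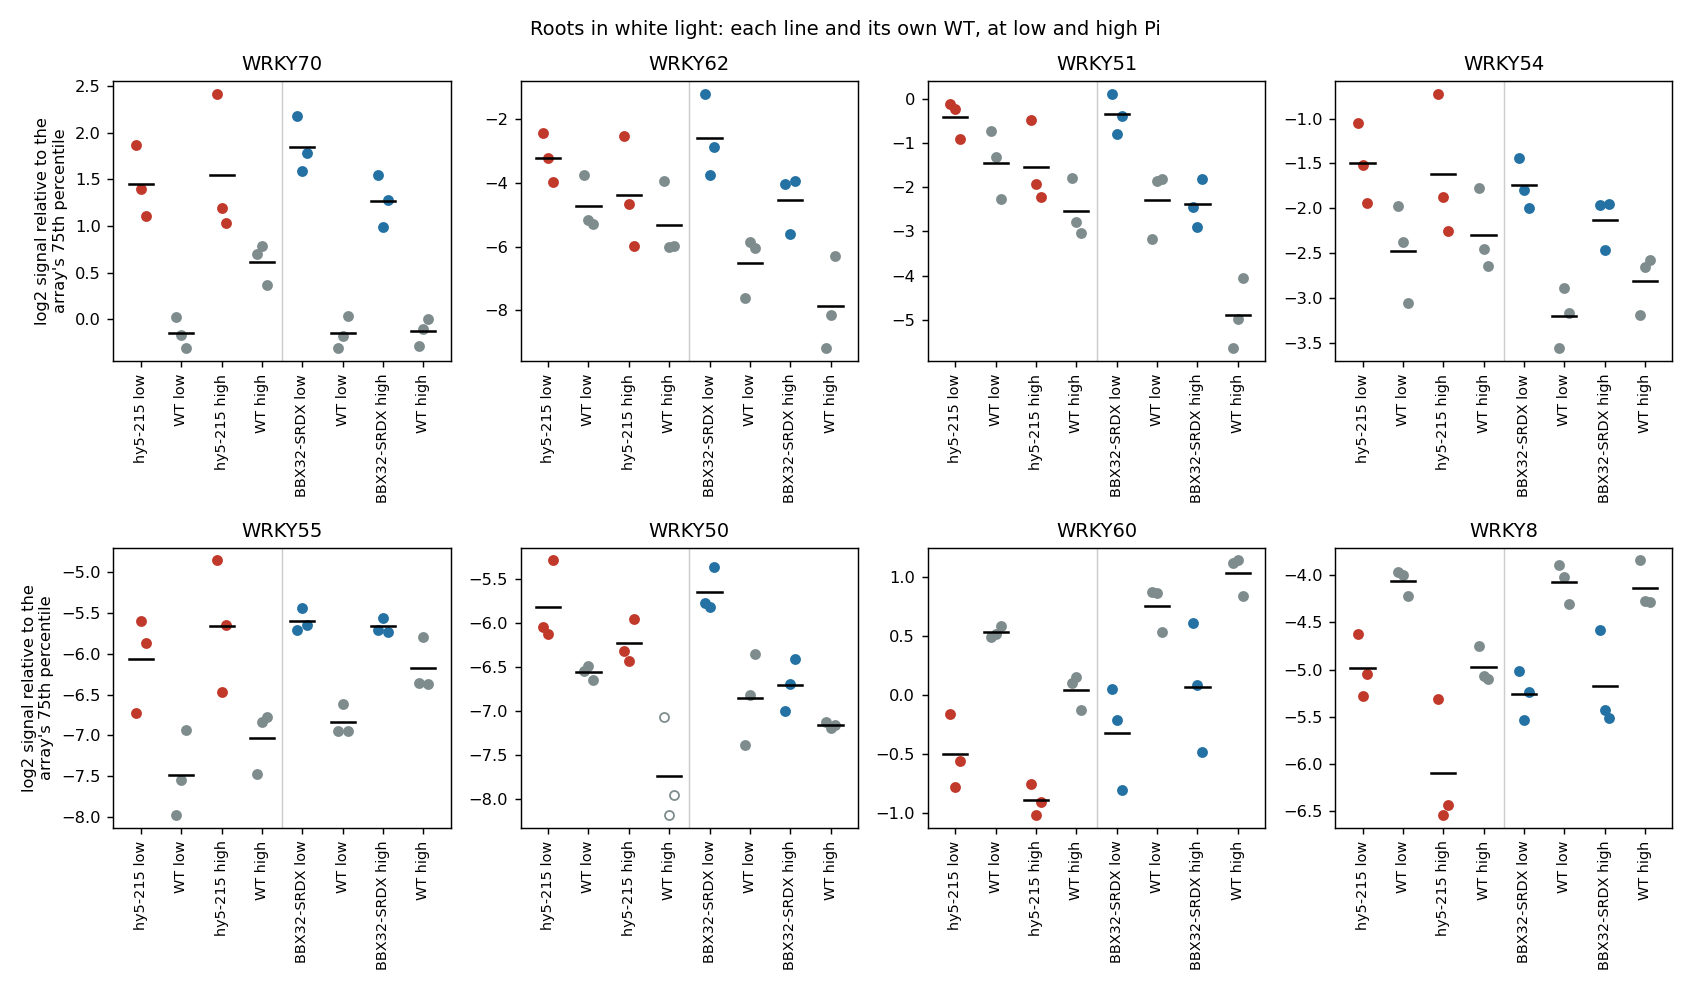
Levels of 8 members in roots (log2 signal relative to the array's 75th percentile), one point per array with the line first and its WT after it, on Pi-deficient and then Pi-sufficient medium, for hy5-215 (left of each panel) and 35S:BBX32-SRDX (right); bars are means of 3 arrays and open points belong to groups with no array well above background. In Pi-deficient roots WRKY70 lies above WT on all arrays of both lines, and WRKY60 lies below WT on all arrays of both.

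On Pi-sufficient medium fewer members differed. WRKY50 was higher and WRKY8 lower in hy5-215 roots, 2 of 30, against 5.06% of all genes (2.04% higher and 3.03% lower). WRKY51 and WRKY70 were higher in 35S:BBX32-SRDX roots, 2 of 30, against 0.717% of all genes (0.614% higher). The medians over the 30 members were 0.13 and 0.24, beside 0.03 and 0.03 over all genes.

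WRKY70 had 1.55, 0.99 and 1.28 in Pi-sufficient 35S:BBX32-SRDX roots, against -0.28, -0.10 and 0.01 in WT (1.4, SE 0.18, adjusted p = 0.00633). In hy5-215 roots it had 2.42, 1.19 and 1.04, against 0.70, 0.79 and 0.37 in WT, without overlap, but the difference of 0.93 (SE 0.33) did not pass (adjusted p = 0.0996). WRKY51 had -2.44, -2.89 and -1.82 in 35S:BBX32-SRDX roots, against -5.64, -4.98 and -4.06 in WT (2.51, SE 0.48, adjusted p = 0.0408), a call that was lost in 10 of 12 fits that each left out 1 array (2.13 to 2.76, adjusted p 0.0529 to 0.145). WRKY62 differed by 3.34 (SE 0.87) in the same roots and did not pass (adjusted p = 0.11).

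WRKY50 had -6.31, -6.42 and -5.96 in Pi-sufficient hy5-215 roots, against -7.07, -8.18 and -7.96 in WT, where no array was well above background. It was at least 2.06-fold higher in hy5-215 (adjusted p = 0.00737), but with normexp background correction the difference turned to -0.18 (adjusted p = 0.86). No WT root group of this set had WRKY50 well above background on every array. WRKY50 was therefore tested in these roots only through the hy5-215 groups, where it is high on Pi-sufficient medium. Its call and its part in the count lean on them. WRKY8 had -5.31, -6.54 and -6.44 in hy5-215 roots, against -4.75, -5.07 and -5.10 in WT (-1.12, SE 0.30, adjusted p = 0.0311), and the call was lost without hy5-215 replicate 2 or 3 or any of the 3 WT arrays (-0.90 to -1.19, adjusted p 0.0613 to 0.115). In 35S:BBX32-SRDX roots WRKY8 was called on this medium only with the slide as a block (-1.04, SE 0.15, adjusted p = 0.00714).

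Shoots of neither line had a called member. The counts were 0 of 30 in shoots labelled hy5-215 on Pi-deficient (against 0.159% of all genes) and Pi-sufficient medium (0.042%), with 0 and 1 members at an unadjusted p below 0.05 by limma. They were 0 of 30 in 35S:BBX32-SRDX shoots on Pi-deficient (0.103%) and Pi-sufficient medium (0.0234%), with 3 and 2 members at an unadjusted p below 0.05. Some of the members higher in Pi-deficient 35S:BBX32-SRDX roots had negative values in shoots that did not pass: WRKY70 was -1.0 (SE 0.41, adjusted p = 0.414), WRKY54 -1.5 (SE 0.64, adjusted p = 0.43) and WRKY62 -1.49 (SE 0.79, adjusted p = 0.498). The other members higher in those roots, WRKY51, WRKY55 and WRKY50, did not pass in shoots either, and their shoot values are not given here.

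The root and shoot effects of 35S:BBX32-SRDX on Pi-deficient medium differed from each other for 5 of 30 members, all with the larger value in roots, against 3.56% of all genes (1.87% in that direction). The root effect exceeded the shoot effect by 2.99 for WRKY70 (SE 0.47, adjusted p = 0.00114), 1.66 for WRKY55 (SE 0.33, adjusted p = 0.00732), 5.40 for WRKY62 (SE 1.24, adjusted p = 0.0183), 2.96 for WRKY54 (SE 0.72, adjusted p = 0.0248) and 2.51 for WRKY51 (SE 0.68, adjusted p = 0.0485). With the slide as a block WRKY38 (2.90, adjusted p = 0.0424) and WRKY7 (-0.85, adjusted p = 0.00578) were added, 7 of 30 against 12.4% of all genes in that fit. Without the block the same test passed for 0 of 30 members for 35S:BBX32-SRDX on Pi-sufficient medium (0.173% of all genes, 7 members at an unadjusted p below 0.05). There the block called WRKY70 (1.96, adjusted p = 0.00251) and WRKY60 (-0.99, adjusted p = 0.0293), 2 of 30 against 2.83% of all genes.

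For hy5-215 the root effect exceeded the effect in shoots labelled hy5-215 for 0 of 30 members on Pi-deficient (4.57% of all genes, 4 members at an unadjusted p below 0.05) and 0 of 30 on Pi-sufficient medium (2.75%, 3 members). With the slide as a block the test passed for 15.5% of all genes on Pi-deficient and 8.95% on Pi-sufficient medium. Among the members it then passed on Pi-deficient medium for WRKY70 (1.29, adjusted p = 0.0182), WRKY54 (1.32, adjusted p = 0.02), WRKY51 (1.48, adjusted p = 0.0301) and WRKY55 (1.74, adjusted p = 0.0447), 4 of 30. On Pi-sufficient medium it passed for WRKY70 (1.17, adjusted p = 0.042), 1 of 30. All of these effects were larger in roots. These values carry the limit that the HY5 probe did not separate those shoots from WT.

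The effects of the 2 lines in roots were also set against each other, each relative to its own WT. On Pi-deficient medium only WRKY23 passed, 1 of 30 against 1.39% of all genes (0.831% in the direction of WRKY23): it had -0.72, -0.82 and -0.51 in hy5-215, against -0.36, -0.37 and -0.55 in WT, and 0.09, -0.11 and -0.36 in 35S:BBX32-SRDX, against -0.45, -0.48 and -0.61 in WT. The hy5-215 effect lay 0.64 below the 35S:BBX32-SRDX effect (-0.64, SE 0.15, adjusted p = 0.0413), and in neither line alone was WRKY23 called; the test was lost in 13 of 24 fits that each left out 1 array (-0.53 to -0.68, adjusted p 0.0505 to 0.121). With the slide as a block WRKY42 was added (0.80, adjusted p = 0.0441), 2 of 30 against 6.39% of all genes. For WRKY70 the effects differed by -0.40 (SE 0.39, adjusted p = 0.901) and for WRKY62 by -2.39 (SE 1.31, adjusted p = 0.606), and on Pi-sufficient medium 0 of 30 passed (1.48% of all genes, 3 members at an unadjusted p below 0.05).

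Other transcripts moved in the same roots. The 4 shoot markers, RBCS1A, RCA, LHCB1.3 and LHCA1, were all lower in hy5-215 roots at both Pi levels: their summed level was 0.71 to 1.05 in Pi-deficient hy5-215 roots, against 2.41 to 4.25 in WT, and 1.27 to 1.65 on Pi-sufficient medium, against 4.11 to 4.42 in WT. In 35S:BBX32-SRDX roots 3 of 4 were lower on Pi-deficient medium (0.98 to 2.19, against 3.03 to 4.33 in WT) and 0 of 4 on Pi-sufficient medium (2.66 to 4.40, against 4.46 to 4.89 in WT; 3 of 4 at an unadjusted p below 0.05). None of the 4 was at background throughout any of these groups. Of 5 root markers, 0 were called in these 4 comparisons (2, 1, 3 and 0 at an unadjusted p below 0.05), and the part of this shift in the WRKY values was not tested. In RNA of whole roots, fewer cells of a type and less RNA per cell cannot be told apart.

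Genes around the members were read from lists of known pathway members. Of 13 tested genes of the salicylic acid pathway, 3 were higher in Pi-deficient 35S:BBX32-SRDX roots than in WT: SARD1 (2.05) and CBP60G (1.4), activators of the biosynthesis gene ICS1, and NIMIN1 (1.21), a partner of the receptor NPR1. In Pi-sufficient 35S:BBX32-SRDX roots only CBP60G was higher (2.10), and in hy5-215 roots 0 of 13 were called at either Pi level (3 and 2 at an unadjusted p below 0.05). Among the 42 other WRKY genes, 37 were tested in hy5-215 roots, where WRKY59 (2.82 on Pi-deficient and 3.94 on Pi-sufficient medium) and WRKY58 (2.06 and 1.17) were higher and WRKY57 (-1.84 and -1.96) lower than in WT at both Pi levels. In Pi-deficient 35S:BBX32-SRDX roots WRKY59 (3.20) and WRKY58 (1.81) were also higher and WRKY57 (-2.22) lower, 5 of 38 other WRKY genes called in all.

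Whether Pi deficiency changed WRKY expression was asked in 12 comparisons of Pi-deficient with Pi-sufficient plants, 6 in roots and 6 in shoots. They gave 74 calls of a higher and 1 call of a lower level in Pi-deficient plants. In all, 22 members were higher in at least 1 comparison, WRKY7 was lower in 1, and WRKY11, WRKY17, WRKY22, WRKY23, WRKY26, WRKY39 and WRKY42 were called in none. The Pi comparisons use the same arrays as the line comparisons, so the 2 kinds are not independent of each other.

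**Figure D2:**
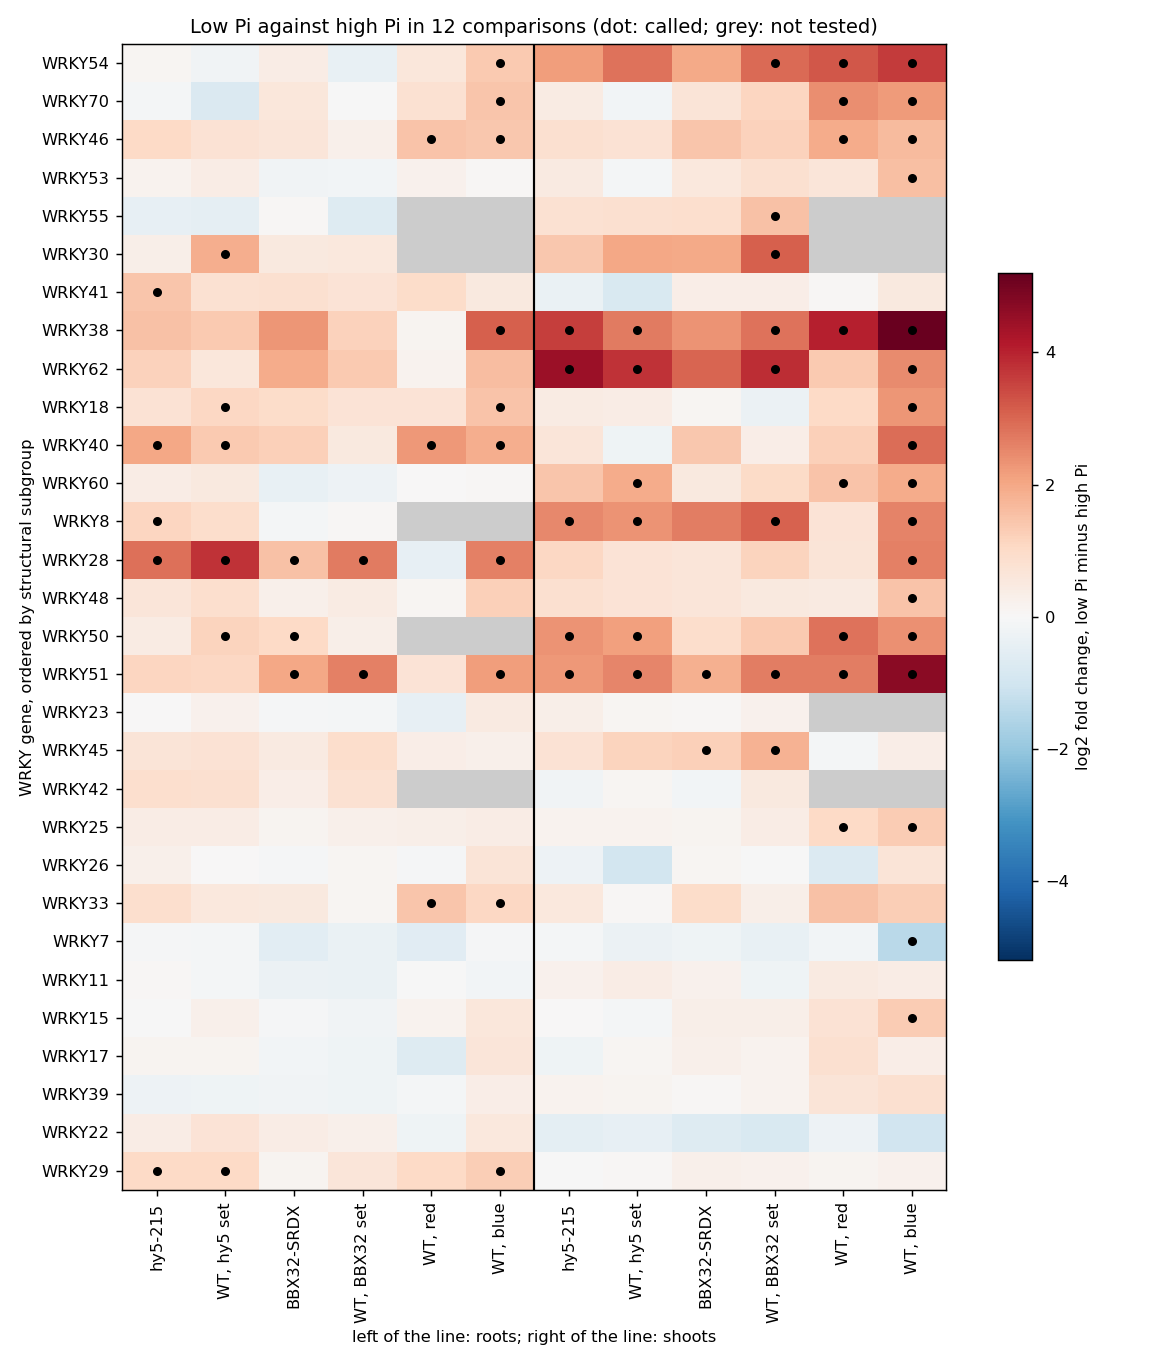
Differences between Pi-deficient and Pi-sufficient plants (log2, colour scale) for the 30 members, ordered by structural group, in 6 root and 6 shoot comparisons; dots mark calls and grey cells were not tested. The colours run to the higher side in 74 of the 75 calls, and the WRKY28 row is dotted in 5 of the 6 root columns while the WRKY51 row is dotted in all 6 shoot columns.

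In roots WRKY28 (AT4G18170), which activates ICS1, was the member most often called, higher under Pi deficiency in 5 of 6 comparisons. In the WT of the hy5-215 set it had -1.04, -1.4 and -1.77 in Pi-deficient roots, against -4.31, -5.61 and -5.59 in Pi-sufficient roots (3.77, SE 0.38, adjusted p = 0.000101). In the WT of the 35S:BBX32-SRDX set it had -2.61, -1.85 and -2.26, against -4.80, -4.91 and -5.07 (2.69, SE 0.30, adjusted p = 0.000434). Neither pair of groups overlapped, and within the slides of these sets the difference was 3.27, 4.21 and 3.82, and 2.19, 3.06 and 2.81.

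The lines had smaller WRKY28 differences, which were not shown to differ from WT. In hy5-215 roots WRKY28 had -1.95, -2.51 and -2.51 under Pi deficiency, against -4.88, -5.73 and -4.90 with sufficient Pi (2.85, SE 0.38, adjusted p = 0.00154). Roots of 35S:BBX32-SRDX had -2.76, -3.52 and -3.27, against -4.01, -4.93 and -5.11 (1.5, SE 0.30, adjusted p = 0.0174), a call lost without replicate 1 or 3 of the Pi-deficient or replicate 2 or 3 of the Pi-sufficient line (1.29 to 1.55, adjusted p 0.052 to 0.0749). The response of the line minus that of WT was -0.92 (SE 0.53, adjusted p = 0.644) for hy5-215 and -1.18 (SE 0.43, adjusted p = 0.662) for 35S:BBX32-SRDX.

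Under blue light WRKY28 had -1.31 and -0.88 in Pi-deficient roots, against -3.88 and -3.53 in Pi-sufficient roots, where neither array was well above background, and was at least 5.37-fold higher under Pi deficiency (adjusted p = 0.00122). Under red light it had -4.13 and -4.69 in Pi-deficient roots, against -4.07 and -3.90 in Pi-sufficient roots, with no array well above background. The light-by-Pi test in roots called WRKY28, 1 of the 25 members tested, against 1.23% of all genes (0.485% in this direction), with the smaller Pi response under red light (adjusted p = 0.015). Since 3 of the 4 groups, all but the Pi-deficient blue-light roots, had no array well above background, the size of that difference was not measured, and leaving out any of the 4 red-light root arrays ended the call (adjusted p 0.0521 to 0.0834). In all root tests of the light-quality set WRKY28 was included only through the Pi-deficient blue-light roots, where it is high.

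**Figure D3:**
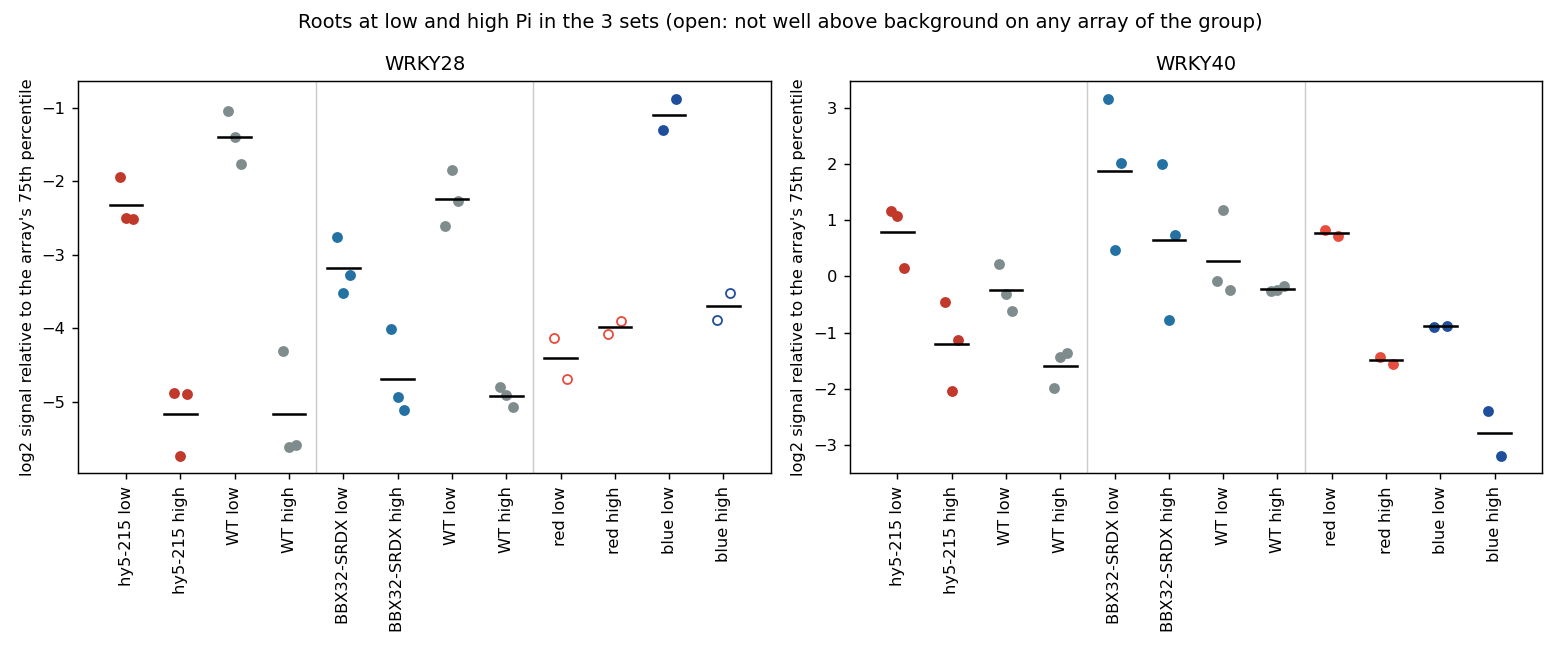
WRKY28 and WRKY40 in the 12 root groups (log2 signal relative to the array's 75th percentile), one point per array, Pi-deficient before Pi-sufficient in each pair; bars are group means and open points belong to groups with no array well above background. WRKY28 is higher under Pi deficiency in every pair except red light, and WRKY40 is higher in the Pi-deficient group mean of all 6 pairs.

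WRKY40 (AT1G80840), the abscisic acid and defence repressor of group IIa, was called in 4 of 6 root comparisons. It had 1.17, 1.07 and 0.14 in Pi-deficient hy5-215 roots, against -0.46, -2.03 and -1.14 in Pi-sufficient ones (2.0, SE 0.41, adjusted p = 0.0121), and 0.22, -0.32 and -0.62, against -1.98, -1.43 and -1.36, in the WT of that set (1.35, SE 0.41, adjusted p = 0.036). Under red light it had 0.82 and 0.72 in Pi-deficient roots, against -1.43 and -1.56 (2.26, SE 0.26, adjusted p = 0.0027), and under blue light -0.91 and -0.87, against -2.39 and -3.19 (1.90, SE 0.26, adjusted p = 0.00468). Roots of 35S:BBX32-SRDX were spread widely, 3.16, 0.47 and 2.02 under Pi deficiency against 2.0, -0.78 and 0.74 with sufficient Pi, and WRKY40 was not called.

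The other root calls differed between sets. In the WT of the hy5-215 set 6 of 30 members were higher in Pi-deficient roots, against 4.07% of all genes higher and 7.24% called either way, with a median over the members of 0.64, beside 0.01 over all genes: WRKY28, WRKY30 (1.87, adjusted p = 0.00386), an early oxidative stress gene, WRKY40, WRKY50 (at least 1.64-fold, adjusted p = 0.0149), WRKY18 (1.07, adjusted p = 0.0219) and WRKY29 (1.05, adjusted p = 0.00817). With normexp background correction the WRKY50 difference turned to -0.33 (adjusted p = 0.672). In roots of this set WRKY50 was tested only through the hy5-215 groups. The block by slide added WRKY38 (1.38, adjusted p = 0.00144) and WRKY51 (1.09, adjusted p = 0.00631), 8 of 30 against 7.98% of all genes. The unblocked count fell to 2 without WT replicate 3 of the Pi-sufficient roots. The WRKY18 value of WT replicate 2 of the Pi-deficient roots was flagged by the scanner and left out of that fit.

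In hy5-215 roots 5 of 30 were higher under Pi deficiency, against 2.44% of all genes higher and 3.58% called either way: WRKY28, WRKY40, WRKY41 (1.45, adjusted p = 0.0167), WRKY8 (1.12, adjusted p = 0.0359) and WRKY29 (1.04, adjusted p = 0.0173). The block added WRKY38 (1.54, adjusted p = 0.00205) and WRKY51 (1.12, adjusted p = 0.0105), 7 of 30 against 4.25% of all genes. The unblocked count was 2 without replicate 2 or 3 of the Pi-sufficient or replicate 1 of the Pi-deficient hy5-215 roots. In the WT of the 35S:BBX32-SRDX set the 2 of 30 members called, WRKY28 and WRKY51, were higher, against 3.12% of all genes higher and 5.76% called either way. WRKY51 had -3.17, -1.87 and -1.83 in these Pi-deficient roots, against -5.64, -4.98 and -4.06 in Pi-sufficient ones (2.61, SE 0.48, adjusted p = 0.00579).

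Of the 30 members, 3 were higher under Pi deficiency in 35S:BBX32-SRDX roots, against 1.55% of all genes higher and 3.3% called either way: WRKY51 (2.03, adjusted p = 0.0346), WRKY28 and WRKY50 (1.05, adjusted p = 0.031). The count was 0 without replicate 1 or 3 of the Pi-deficient or replicate 2 of the Pi-sufficient 35S:BBX32-SRDX roots. In these roots 3 of 4 shoot markers were also lower under Pi deficiency, with a summed level of 0.98 to 2.19, against 2.66 to 4.40 on Pi-sufficient medium. The part of that shift in the WRKY calls was not tested.

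Under blue light 10 of the 25 members tested were higher in Pi-deficient roots, against 3.16% of all genes higher and 6.18% called either way, and under red light 3 of 25, against 2.24% and 2.9%. The medians over the members were 0.68 under blue and 0.19 under red light, beside -0.08 and -0.06 over all genes. WRKY38 (AT5G22570), like WRKY62 a salicylic acid-inducible repressor of basal defence, was among the members higher under Pi deficiency in blue-light roots: it had 0.27 and 1.15, against -2.87 and -1.95 (3.11, SE 0.39, adjusted p = 0.00333). Under red light it had -0.04 and 0.50 in Pi-deficient roots, against -0.12 and 0.26 in Pi-sufficient ones, with overlap. The Pi response of WRKY38 under red light minus that under blue was -2.95 (SE 0.55, adjusted p = 0.0516). A block by slide called WRKY38 (SE 0.28, adjusted p = 0.00454) and WRKY17 (-1.31, adjusted p = 0.0453), with 2.5% of all genes called in that fit.

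The remaining calls in blue-light roots were WRKY51 (2.18, adjusted p = 0.00577), WRKY18 (1.48, adjusted p = 0.011), WRKY70 (1.45, adjusted p = 0.0164), WRKY46 (1.41, adjusted p = 0.0104), WRKY54 (1.36, adjusted p = 0.0278), WRKY29 (1.28, adjusted p = 0.0488) and WRKY33 (1.07, adjusted p = 0.0111), with WRKY28 and WRKY40 above. In red-light roots WRKY46 (1.49, adjusted p = 0.0125) and WRKY33 (1.43, adjusted p = 0.00428) were called with WRKY40. The block by slide added WRKY48 under blue light (1.26, adjusted p = 0.00572) and WRKY29 under red light (1.02, adjusted p = 0.0198). The blocked counts were 11 and 4 of 25 members, against 7.53% and 3.91% of all genes. The blue and red counts of 10 and 3 became 3 and 1 with normexp background correction and 2 and 0 with the authors' values, and the blue count was 4 without the filter on dim probes. Leaving out replicate 2 of the Pi-sufficient blue-light roots took the blue count to 5, and leaving out replicate 1 of the Pi-sufficient red-light roots took the red count to 1.

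Of the 13 tested salicylic acid pathway genes, CBP60G was higher in Pi-deficient roots of WT of the hy5-215 set (2.45), of WT of the 35S:BBX32-SRDX set (2.44), of 35S:BBX32-SRDX (1.73) and under blue (at least 1.66-fold, above background on 1 of 2 arrays) and red light (at least 7.54-fold). The counts of the whole list were 2, 2, 1, 4 and 2 in these roots, with NIMIN1 (-1.05) lower in the second, and 0 of 13 in hy5-215 roots by limma, with 5 at an unadjusted p below 0.05. PHT1;1 was higher in Pi-deficient roots of WT of the hy5-215 set (1.59), of hy5-215 (1.16) and of WT of the 35S:BBX32-SRDX set (1.01). Among the other WRKY genes, WRKY31 was higher in Pi-deficient roots in all 6 comparisons, by 1.27 to 2.14. Their root counts were 2 of 37 tested in WT of the hy5-215 set and 3 of 37 in hy5-215. They were 3 of 38 in WT of the 35S:BBX32-SRDX set, 1 of 38 in that line, 3 of 32 under blue and 1 of 32 under red light.

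Whether the lines changed the Pi response was tested as an interaction. Without the slide as a block the line-by-Pi test passed for 0 of 30 members in hy5-215 roots (0.551% of all genes, 1 member at an unadjusted p below 0.05 by limma), hy5-215-labelled shoots (0%, 0 members), 35S:BBX32-SRDX roots (0.0712%, 4 members) and 35S:BBX32-SRDX shoots (0%, 0 members). With the slide as a block WRKY55 passed in 35S:BBX32-SRDX roots (0.73, adjusted p = 0.0483), 1 of 30 against 0.69% of all genes: its excess over WT was larger under Pi deficiency.

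The Pi comparisons in shoots called members in all 4 white-light groups. In the WT of the hy5-215 set 6 of 30 members were higher in Pi-deficient shoots, against 5.82% of all genes higher and 7.42% called either way. For WT of the 35S:BBX32-SRDX line the count was 8 of 30, against 6.81% and 7.75%. Shoots labelled hy5-215 had 5 of 30, against 1.42% and 1.55%, and 35S:BBX32-SRDX shoots 2 of 30, against 2.64% and 2.8%. In these 4 comparisons the medians over the members were 0.28, 0.51, 0.51 and 0.59, beside -0.04, -0.09, -0.04 and -0.06 over all genes. For WT of the hy5-215 set the root marker COBL9 was also higher in Pi-deficient shoots (1 of 5 called, summed level 5.34 to 5.43, against 4.09 to 4.98 in Pi-sufficient shoots), and 0 of 4 shoot markers were called, with 2 past the adjusted p without the fold limit (8.69 to 9.42, against 9.52 to 9.69). In the other 3 comparisons 0 of 5 root and 0 of 4 shoot markers were called (1 root marker in each, and 1, 0 and 0 shoot markers in hy5-215-labelled, WT and 35S:BBX32-SRDX shoots, at an unadjusted p below 0.05 by limma), and the part of these markers in the WRKY values was not tested.

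WRKY51 was called in all 6 shoot comparisons. In WT of the hy5-215 set it had -2.38, -3.56 and -3.64 in Pi-deficient shoots, against -5.90, -5.63 and -5.67 in Pi-sufficient ones (2.54, SE 0.46, adjusted p = 0.00547), and in WT of the 35S:BBX32-SRDX set -3.10, -3.18 and -3.89, against -6.24, -5.66 and -6.30 (2.68, SE 0.44, adjusted p = 0.00315). The Pi-deficient arrays of both sets lay above all Pi-sufficient arrays. Shoots labelled hy5-215 had -2.84, -3.63 and -4.49, against -5.33, -5.90 and -6.47 (2.25, SE 0.46, adjusted p = 0.0377), and 35S:BBX32-SRDX shoots had -4.48, -2.96 and -4.47, against -6.27, -5.99 and -5.19 (1.85, SE 0.44, adjusted p = 0.0488). The calls in these 2 groups were lost in 8 and 10 of 12 fits that each left out 1 array (1.84 to 2.25, adjusted p 0.0512 to 0.136, and 1.34 to 2.10, adjusted p 0.0501 to 0.157), whereas neither WT call was lost in any.

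WRKY62 had -2.32, -3.65 and -4.53 in Pi-deficient WT shoots of the hy5-215 set, against -7.70, -7.94 and -6.17 in Pi-sufficient ones (3.77, SE 0.74, adjusted p = 0.00785), where 1 of 3 arrays was well above background. In WT of the 35S:BBX32-SRDX set it had -1.51, -2.14 and -3.96, against -6.01, -6.61 and -6.48 (3.83, SE 0.79, adjusted p = 0.01). In shoots labelled hy5-215 it had -2.46, -3.78 and -4.58, against -7.05, -8.62 and -8.50 with no array well above background, and was at least 11.0-fold higher under Pi deficiency (adjusted p = 0.016). In shoots of the hy5-215 set WRKY62 was thus tested only through the Pi-deficient groups, where it is high. No Pi-deficient array reached down to a Pi-sufficient one in these 3 comparisons.

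WRKY38 had -2.17, -3.00 and -4.58 in Pi-deficient WT shoots of the hy5-215 set, against -5.09, -6.32 and -6.46 in Pi-sufficient ones (2.71, SE 0.64, adjusted p = 0.0178). In WT of the 35S:BBX32-SRDX set it had -2.11, -1.68 and -3.53, against -4.85, -5.25 and -5.67 (2.82, SE 0.58, adjusted p = 0.01). In shoots labelled hy5-215 it had -2.41, -2.92 and -3.92, against -6.07, -6.65 and -7.29 (3.59, SE 0.64, adjusted p = 0.0223). The order held on every array of these 3 comparisons. In shoots of the hy5-215 set no Pi-sufficient group had WRKY38 well above background on every array. It too was tested there only through the Pi-deficient groups, where it is high.

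WRKY8 was higher in Pi-deficient WT shoots by 2.34 (adjusted p = 0.0103) and 3.06 (adjusted p = 0.0104) in the hy5-215 and 35S:BBX32-SRDX sets and by 2.5 in shoots labelled hy5-215 (adjusted p = 0.0322). WRKY50 was higher in WT of the hy5-215 set (2.15, adjusted p = 0.0102) and in shoots labelled hy5-215 (2.35, adjusted p = 0.0296), and WRKY60 in WT of the hy5-215 set (1.92, adjusted p = 0.0143). Like WRKY62 and WRKY38, WRKY50 was tested in shoots of the hy5-215 set only through the Pi-deficient groups, where it is high. The part of these members in the counts and medians of that set leans on those groups. WT shoots of the 35S:BBX32-SRDX set also had higher WRKY30 (3.12, adjusted p = 0.00487), WRKY54 (2.95, adjusted p = 0.012) and WRKY55 (1.52, adjusted p = 0.00546).

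WRKY45 (AT3G01970), the activator of PHT1;1, had 2.53, 1.95 and 1.95 in Pi-deficient WT shoots of the 35S:BBX32-SRDX set, against 0.35, 0.17 and 0.44 in Pi-sufficient ones (1.83, SE 0.26, adjusted p = 0.00154). In 35S:BBX32-SRDX shoots it had 1.84, 1.5 and 1.23, against 0.70, -0.27 and 0.42 (1.24, SE 0.26, adjusted p = 0.0283). The groups did not overlap in either comparison. In WT of the hy5-215 set it had 1.81, 1.05 and 0.64, against -0.28, -0.18 and 0.52, again without overlap, and was called with the slide as a block (1.15, SE 0.37, adjusted p = 0.0368). WRKY45 was called in no root comparison, and WRKY42, the other Pi-linked member, in neither organ.

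Replicates of one number lay on one slide in each white-light organ and deviated together, and with the slide as a block more shoot calls were made. In 35S:BBX32-SRDX shoots the block took the count to 8 of 30, against 4.86% of all genes in that fit, adding WRKY62 (3.04, adjusted p = 0.0195), WRKY8 (2.66, adjusted p = 0.00148), WRKY38 (2.32, adjusted p = 0.0058), WRKY30 (1.97, adjusted p = 0.0201), WRKY54 (1.96, adjusted p = 0.0106) and WRKY46 (1.44, adjusted p = 0.0235). In WT of the hy5-215 set it added WRKY54 (2.82, adjusted p = 0.000306) and WRKY30 (2.0, adjusted p = 0.0197), and in WT of the 35S:BBX32-SRDX set WRKY46 (1.19, adjusted p = 0.0169), WRKY28 (1.16, adjusted p = 0.0285) and WRKY70 (1.1, adjusted p = 0.00286). The blocked counts were 9 and 11 of 30 in these WT shoots, against 10.4% and 9.68% of all genes. In shoots labelled hy5-215 the block added WRKY54 (2.18, adjusted p = 0.00343) and WRKY60 (1.43, adjusted p = 0.0157), 7 of 30 against 4.75% of all genes.

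Single arrays weighed on these shoot counts. In 35S:BBX32-SRDX shoots the count was 0 without replicate 1 or 2 and 6 without replicate 3 of the Pi-deficient plants. In shoots labelled hy5-215 it was 0 without replicate 1 or 2 of the Pi-deficient or replicate 2 or 3 of the Pi-sufficient plants.

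Under blue light 17 of the 26 members tested changed in Pi-deficient shoots, 16 higher and 1 lower, against 20.3% of all genes (11.6% higher and 8.65% lower). Under red light 8 of 26 were higher, against 3.82% of all genes higher and 4.4% called either way. The medians over the members were 1.52 under blue and 0.79 under red light, beside -0.05 and -0.03 over all genes. A gene was tested if detected throughout at least 1 group. Of the called members, WRKY38, WRKY50, WRKY51, WRKY54 and WRKY62 were tested only through Pi-deficient shoots. WRKY8 and WRKY48 were tested only through Pi-deficient blue-light shoots. Their direction, and their part in the counts and medians, therefore leans on the groups where they are high. Of group III, 6 of the 7 members tested were higher under blue light, and of group IIa 3 of 3.

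WRKY38 had 1.44 and 1.16 in Pi-deficient blue-light shoots, against -2.88 and -4.79 in Pi-sufficient ones (at least 13.4-fold higher, adjusted p = 0.00235), and -0.40 and -1.98 under red light, against -5.09 and -5.35 (at least 4.38-fold higher, adjusted p = 0.0228). WRKY54 had 1.4 and 0.92 under blue light, against -2.31 and -2.61 (at least 12.2-fold higher, adjusted p = 0.000422), and 0.77 and 0.00 under red light, against -2.85 and -2.88 (3.25, SE 0.29, adjusted p = 0.00235). WRKY51 had 0.41 and 0.10 under blue light, against -4.35 and -4.57 (at least 6.51-fold higher, adjusted p = 0.00135), and -0.97 and -2.64 under red light, against -4.93 and -4.04 (at least 2.85-fold higher, adjusted p = 0.0378). For these 3 members every Pi-deficient array lay above every Pi-sufficient array of the same light.

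WRKY18 (AT4G31800), whose product pairs with WRKY40 and WRKY60, had 3.72 and 3.84 in Pi-deficient blue-light shoots, against 1.62 and 1.37 in Pi-sufficient ones (2.29, SE 0.25, adjusted p = 0.00121), and WRKY40 had 0.87 and 1.11, against -1.87 and -1.99 (2.92, SE 0.51, adjusted p = 0.00569). Both pairs were well apart. WRKY7 (AT4G24240) of group IId went the other way, with -2.32 and -2.26 in Pi-deficient blue-light shoots, against -0.88 and -0.87 in Pi-sufficient ones (-1.41, SE 0.22, adjusted p = 0.00413). WRKY28 (at least 3.53-fold), WRKY50 (at least 3.23-fold), WRKY62 (at least 2.32-fold), WRKY8 (at least 1.66-fold) and WRKY70 (2.21, adjusted p = 0.0128) were higher under Pi deficiency in blue-light shoots too, with adjusted p of 0.00142, 0.0139, 0.00287 and 0.00417 for the first 4 of them, and of the other 6 members called higher, 5 differed by 1.31 to 1.93. The last of them, WRKY48 (adjusted p = 0.018), was not well above background on either Pi-sufficient array, has no bound over 1-fold, and turned to -0.062 with normexp. The remaining red-light calls were WRKY50 (at least 2.82-fold, adjusted p = 0.0325), WRKY70 (2.44, adjusted p = 0.0371), WRKY46 (1.92, adjusted p = 0.0201), WRKY60 (1.49, adjusted p = 0.0354) and WRKY25 (1.04, adjusted p = 0.0354).

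The blue and red counts were 8 and 3 with normexp, the red count 4 with the authors' values and 1 without the filter on dim probes, and with the slide as a block WRKY62 was added under red light (at least 2.32-fold, adjusted p = 0.0485), 9 of 26 against 5.74% of all genes. The red-light count fell to 1 without Pi-deficient replicate 1 or Pi-sufficient replicate 2. The light-by-Pi test in shoots passed for 0 of the 26 members tested (1.47% of all genes), with 7 members at an unadjusted p below 0.05 by limma, and for 2 of 26 without replicate 1 of the Pi-deficient red-light shoots, so the larger blue-light response was not shown for any member. In blue-light shoots 4 of 4 shoot markers were lower under Pi deficiency, with a summed level of 10.02 to 10.04, against 11.38 in both Pi-sufficient arrays, and 1 of the 3 root markers tested (BGLU23) was higher. The part of that shift in the WRKY calls was not tested.

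Genes of pathways around these members were read in the same Pi-deficient shoots. Of the 15 salicylic acid pathway genes, 13 were higher under blue light, where 11.6% of all genes were, among them the targets PR1 (6.09) and PR2 (5.40), the biosynthesis gene PBS3 (4.07) and the transporter EDS5 (at least 6.03-fold). In WT of the 35S:BBX32-SRDX set this was so for 8 of 15 (PR1 5.31, PR2 3.35, PBS3 2.43), under red light 4 of 15 (SARD1 at least 3.25-fold, CBP60G at least 1.78-fold, PR5 2.01, ICS1 1.64), in WT of the hy5-215 set 3 of 15 (ICS1 1.57, PR5 1.11, EDS5 1.07) and in shoots labelled hy5-215 1 of 15 (PR2 3.82). In 35S:BBX32-SRDX shoots 0 of 15 were called by limma, with 10 at an unadjusted p below 0.05.

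Of the 4 camalexin synthesis genes, which WRKY33 regulates, CYP71A13, PAD3 and CYP79B2 were higher in Pi-deficient WT shoots of both white-light sets (CYP71A13 6.14 and 7.46), in 35S:BBX32-SRDX shoots and in blue-light shoots. WRKY33 itself was called in none of the shoot comparisons. The flagellin-response gene FRK1 was higher in Pi-deficient shoots of the WT of the 35S:BBX32-SRDX set (4.54), of 35S:BBX32-SRDX (3.68) and under blue (3.69) and red light (at least 4.22-fold), and of the 11 genes of pattern-triggered signalling 0 to 4 were called per shoot comparison. PHT1;1 and PHO1, the Pi transport genes under WRKY control, were both higher in Pi-deficient shoots of WT in both white-light sets (2.83 and 2.38 in the hy5-215 set, 2.42 and 1.73 in the other), of 35S:BBX32-SRDX (1.98 and 1.38) and of WT under red light (2.74 and 2.29), and under blue light by 1.96 and at least 4.56-fold.

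WRKY genes outside the list were called between Pi levels in shoots as well. The counts were 6 of 35 tested in WT of the hy5-215 set and 1 of 35 in shoots labelled hy5-215. They were 10 of 36 in WT of the 35S:BBX32-SRDX set, 6 of 36 in that line, 6 of 21 under blue and 2 of 21 under red light. Among the 42 other WRKY genes, WRKY75, a known Pi-starvation factor, was higher in Pi-deficient shoots of the WT of the hy5-215 set (2.79), of the WT of the 35S:BBX32-SRDX set (4.57) and of 35S:BBX32-SRDX (3.90), and was at least 2.26-fold higher under red and at least 18.1-fold higher under blue light. WRKY31 was at least 1.14-fold, 6.44-fold and 5.94-fold higher in the first 3 of these and 1.85 higher on the log2 scale under blue light. WRKY49 was lower in Pi-deficient shoots of the WT of the hy5-215 set (-1.56), of shoots labelled hy5-215 (-1.68), of the WT of the 35S:BBX32-SRDX set (-2.27), of 35S:BBX32-SRDX (-1.69) and under blue light (-4.45). It ran opposite to nearly all calls among the 30 members.

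Red and blue light were compared directly in WT at each Pi level. In Pi-deficient roots WRKY40 was higher and WRKY28 and WRKY48 were lower under red light, 3 of 25 members tested, against 5.57% of all genes (3.55% higher and 2.02% lower). WRKY28 had -4.13 and -4.69 under red light, against -1.31 and -0.88 under blue light, and was at least 8.07-fold lower under red light (adjusted p = 0.000842), a call that no left-out array removed. WRKY40 had 0.82 and 0.72 under red, against -0.91 and -0.87 under blue light (1.66, SE 0.26, adjusted p = 0.0101), and WRKY48, a negative regulator of basal resistance, -2.88 and -3.58, against -1.15 and -1.69 (-1.81, SE 0.36, adjusted p = 0.0241). None of the 3 overlapped, and the count was 1 without replicate 1 of the blue-light or either replicate of the red-light Pi-deficient roots. Of 4 shoot markers, 1 (RBCS1A, -2.92) was lower in these red-light roots, with a summed level of 1.42 to 2.18, against 3.21 to 4.36 under blue light, and its part in the result was not tested.

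In Pi-deficient shoots 9 members were lower and WRKY7 was higher under red light, 10 of 26 tested, against 9.59% of all genes (4.31% higher and 5.29% lower), and the median over the members was -0.90, beside 0.07 over all genes. WRKY8 had -3.74 and -5.08 under red light, against -1.72 in both blue-light arrays, and was at least 3.38-fold lower (adjusted p = 0.00842). Like WRKY48 below, WRKY8 was tested only through the Pi-deficient blue-light shoots, where it is high. WRKY18 had 2.10 and 2.20 under red light, against 3.72 and 3.84 under blue light (-1.63, SE 0.25, adjusted p = 0.00869). WRKY40 had -1.35 and -1.02, against 0.87 and 1.11 (-2.18, SE 0.51, adjusted p = 0.0302).

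WRKY51 was lower by 2.06 (SE 0.53, adjusted p = 0.0424), with -0.97 and -2.64 under red light against 0.41 and 0.10 under blue light. WRKY25, a heat tolerance factor, had -0.18 and -0.56, against 0.81 and 0.88 (-1.22, SE 0.20, adjusted p = 0.0112), and WRKY7 had -1.52 and -1.01, against -2.32 and -2.26 (1.03, SE 0.22, adjusted p = 0.0244). No red-light array crossed a blue-light one in these members. WRKY48 (at least 1.82-fold, adjusted p = 0.0242), WRKY26 (-1.35, adjusted p = 0.023), WRKY28 (-1.24, adjusted p = 0.0352) and WRKY46 (-1.14, adjusted p = 0.0492) were lower too.

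With 2 arrays per group these calls were fragile: without replicate 2 of the Pi-deficient blue-light shoots the count was 0, and WRKY8 (adjusted p = 0.0507) and WRKY18 (-1.57, adjusted p = 0.0533) moved just past the threshold. It was 4 with normexp background correction and 3 without the filter on dim probes. A block by slide added WRKY38 (-2.49, adjusted p = 0.0189) and WRKY70 (-1.29, adjusted p = 0.0317) and lost WRKY46 (adjusted p = 0.0597). The blocked count was 11 of 26, against 10.4% of all genes. In the same red-light shoots 2 of 4 shoot markers were higher, with a summed level of 10.80 to 10.87, against 10.02 to 10.04 under blue light, and 1 of 3 root markers (SHR, 1.01) was higher. Their part in the WRKY values was not tested. PR1 (-4.90) and PR5 (-2.40) of the salicylic acid pathway, CYP71A13 (-4.23) and PAD3 (-3.62) of camalexin synthesis, FRK1 (-2.70) and the other WRKY genes WRKY75 (-3.87) and WRKY31 (at least 1.73-fold) were also lower under red light, and WRKY49 (3.07) was higher.

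**Figure D4:**
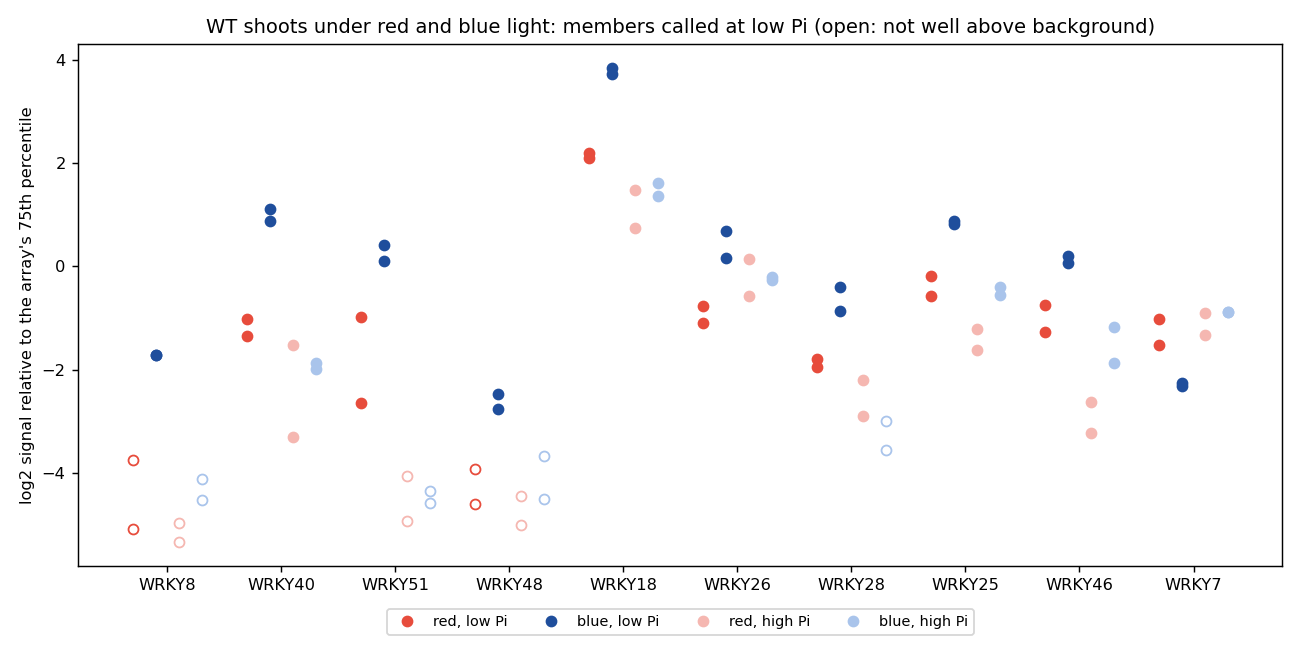
The 10 members called between red and blue light in Pi-deficient shoots (log2 signal relative to the array's 75th percentile), one point per array, in the order red then blue on Pi-deficient and red then blue on Pi-sufficient medium. Open points belong to groups with no array well above background. In Pi-deficient shoots WRKY18 stands at 2.10 and 2.20 under red and 3.72 and 3.84 under blue light, and WRKY7 has the opposite order.

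On Pi-sufficient medium 0 of 25 members were called between red and blue light in roots (0.297% of all genes, 8 members at an unadjusted p below 0.05 by limma) and 0 of 26 in shoots (0.205%, 5 members). The largest root difference, WRKY38, was 2.48 (SE 0.39, adjusted p = 0.0539), with -0.12 and 0.26 under red light against -2.87 and -1.95 under blue light. The groups did not overlap. With the slide as a block WRKY38 was called (2.48, adjusted p = 0.00633), as were WRKY70 (1.52, adjusted p = 0.0171), WRKY51 (1.59, adjusted p = 0.0469) and WRKY40 (1.3, adjusted p = 0.049), 4 of 25 against 0.965% of all genes. Without either replicate of the blue-light Pi-sufficient roots 1 member was called.

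Roots and shoots of WT differed in 12 to 16 of the 30 members, a share close to that of all genes. On Pi-deficient medium the count was 14 (7 higher and 7 lower in roots) in the hy5-215 set, against 42.6% of all genes (24.5% higher and 18.1% lower), and 16 (4 higher and 12 lower) in the 35S:BBX32-SRDX set, against 43.9% (25.3% and 18.6%). On Pi-sufficient medium it was 14 (6 higher and 8 lower), against 41.4% (23.9% and 17.5%), and 12 (6 higher and 6 lower), against 43.1% (25.1% and 18%). WRKY17, WRKY23 and WRKY51 were higher and WRKY22, WRKY18 and WRKY50 were lower in roots in all 4 comparisons.

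WRKY17 (AT2G24570), a negative regulator of basal resistance, had 0.16, 0.06 and 0.18 in Pi-deficient WT roots of the hy5-215 set, against -2.76, -2.78 and -2.71 in shoots, and the root minus shoot difference was 2.85 to 3.51 over the 4 comparisons. WRKY23 (AT2G47260) had -0.36, -0.37 and -0.55, against -2.60, -2.62 and -2.95 in shoots (1.78 to 2.30 over the 4). Their root and shoot arrays were far apart, and neither was called in any Pi comparison.

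WRKY22 (AT4G01250), the flagellin cascade output, had -2.60, -2.66 and -2.66 in the same roots, against -1.14, -0.57 and -1.22 in shoots (-1.66 to -3.01 over the 4). WRKY18 was lower in roots by 1.98 to 3.15. WRKY50 was lower by 2.09 to 3.15 in 3 comparisons, and at least 2.78-fold lower on Pi-sufficient medium in the hy5-215 set, where no root array was well above background. The separation was complete on every array in these comparisons. In the 35S:BBX32-SRDX set WRKY62 (-3.97), WRKY8 (-2.97), WRKY55 (-2.54), WRKY54 (-2.41) and WRKY45 (-1.82) were called lower in roots on Pi-deficient and not on Pi-sufficient medium, and the difference between the 2 Pi levels was not tested for these. WRKY51 was higher in roots by 1.1 to 3.20, but on Pi-deficient medium in the 35S:BBX32-SRDX set its root and shoot arrays overlapped. A block by replicate number added WRKY70 (-1.65), WRKY33 (-1.14), WRKY54 (1.09) and WRKY62 (1.96) on Pi-sufficient medium in the hy5-215 set, 18 against 14, with 42.2% of all genes called. Roots and shoots lay on separate slides, so this block pairs them by number across slides. Whether such pairs deviate together was not tested.

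**Figure D5:**
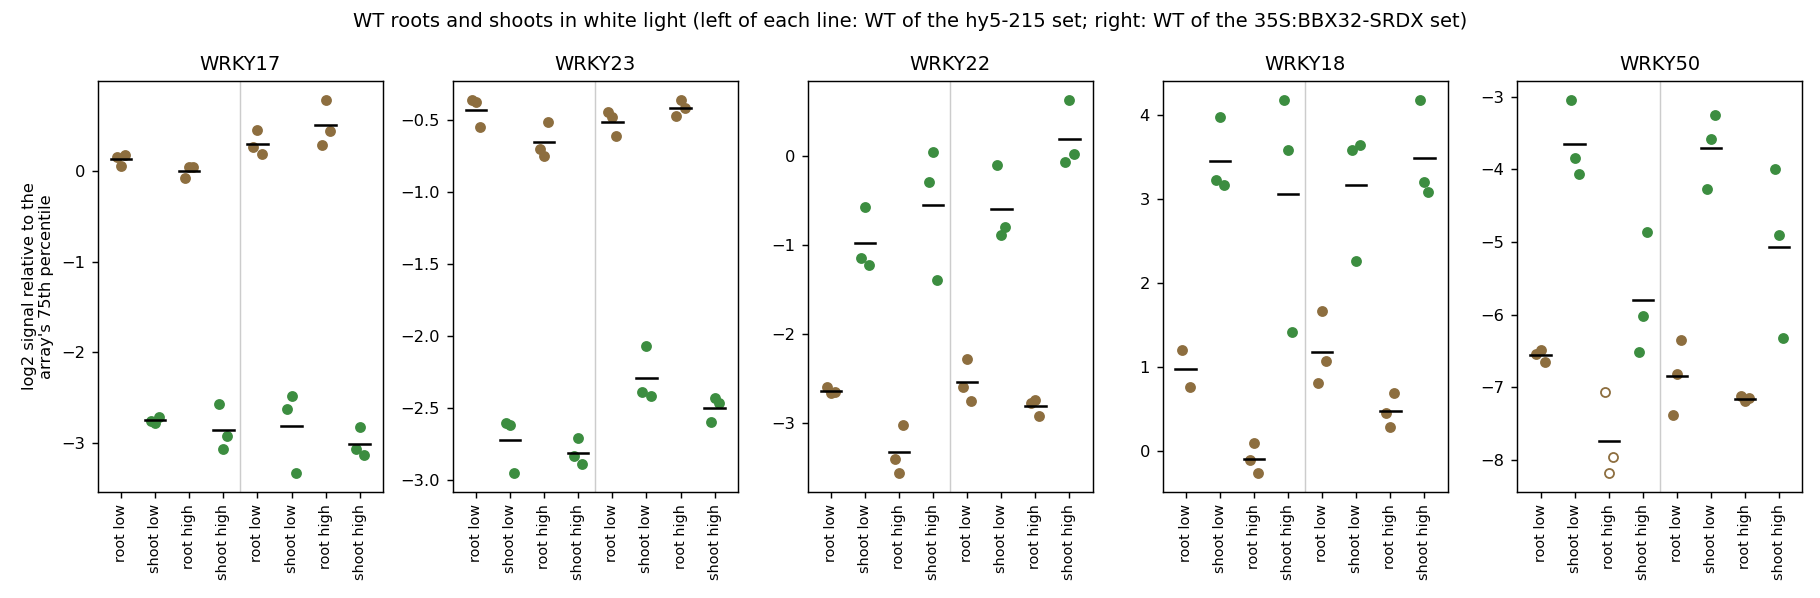
Levels of WRKY17, WRKY23, WRKY22, WRKY18 and WRKY50 in WT roots and shoots (log2 signal relative to the array's 75th percentile), one point per array of the white-light sets, roots before shoots; bars are means. Roots lie above shoots for WRKY17 and WRKY23 and below them for WRKY22, WRKY18 and WRKY50 in all 4 comparisons.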

How the data were processed

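The deposited files are 1-colour Agilent scanner tables, 1 per sample. Total RNA was labelled with Cy3 and the arrays were read with Feature Extraction (11.5.1.1 in the headers of the hy5-215 and light-quality sets, 9.1.3.1 in those of the 35S:BBX32-SRDX set; the submitters' processing notes name 9.1.3.1). The processed signal is an intensity, background-subtracted by the authors' scanner software and deposited without scaling between arrays. The authors' value table, on a natural log scale as deposited, served as an alternative. Members and gene lists were chosen with earlier results of these data known.

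Spots of a probe were averaged without outlier-flagged spots, and log2 intensity was centred on each array's 75th percentile. Of 43603 probes, 36163 (82.9%) matched a gene of the RefSeq annotation; a gene with several probes (7320 genes, 12 members) took the probe of highest mean over the 64 arrays. For called members with more than 1 probe, the other probes, each counted by itself, had the same sign in 69 of 69 cases. Sizes differed in both directions. For Pi in blue-light roots the other WRKY46 probe gave 0.90, against 1.41, and for Pi in blue-light shoots the other WRKY53 probe gave 4.03, against 1.56. A gene was tested where its probe was detected above background throughout at least 1 group, with limma 3.58.1 in R 4.3.3, 1 fit per set and organ, 40 contrasts in all; tables were handled in Python 3.11.15 with pandas 2.3.3 and figures drawn with matplotlib 3.10.9. A bound set the mean of the brighter group against the mean, over the arrays of the dimmer group, of the higher of the probe's own value and the lowest signal among probes well above background. Line effects of the 2 sets, and organs, were compared in joint fits. Every called member is named where at most 10 were called in a contrast, otherwise the 10 of largest difference, and of each list at most 4 called genes.

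The labels give the same replicate numbers to the groups, and same-numbered samples of a set and organ share a slide. Their deviations from the group means correlated in all 18 pairs of each white-light set and organ (hy5-215 roots 0.282 to 0.604, shoots 0.343 to 0.758; 35S:BBX32-SRDX roots 0.146 to 0.644, shoots 0.315 to 0.651), so the numbers pair those samples. Blocked values stand beside the counts whose members they change, in the light-quality set too, where replicates also share slides. The block was the slide, except where WT roots were compared with WT shoots, which lie on separate slides. There it was the replicate number. The block raised the share of all genes called in nearly all comparisons. The number of arrays limits the precision. Data were simulated with each gene's spread averaged over all groups of a fit, both Pi levels included, and with every array drawn independently. For hy5-215 against WT in Pi-deficient roots (21978 genes), 85% of genes changed by 1.5 and 95% of those changed by 2.5 on the log2 scale were recovered. For red against blue in Pi-deficient shoots (17103 genes) it was 63% and 88%. The shared deviations of a slide were not simulated, so these rates hold for unpaired arrays only. Alternatives were other normalisations, background corrections, filters, probe rules, the authors' values, the block, and each array left out. Shoot markers were RBCS1A, RCA, LHCB1.3 and LHCA1, and root markers BGLU23, EXPA7, COBL9, CASP1 and SHR. The authors' fold changes were not used.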

Additional observations from a re-analysis of the deposited data

Results flagged for a closer look

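In 7 cases the effect of a line, light or organ on a member differed between groups by a test of the difference itself, limma with Benjamini-Hochberg adjustment over all genes. The fit gave WRKY28 a smaller Pi response in red-light than in blue-light roots (-3.04, adjusted p = 0.015), but no array of the red-light groups or of the Pi-sufficient blue-light roots was well above background, so that this number is not a measured size.

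The effect of 35S:BBX32-SRDX against WT on Pi-deficient medium was larger in roots than in shoots for WRKY70 (2.99, adjusted p = 0.00114; lost under none of the alternatives tried), WRKY55 (1.66, adjusted p = 0.00732), WRKY62 (5.40, adjusted p = 0.0183), WRKY54 (2.96, adjusted p = 0.0248) and WRKY51 (2.51, adjusted p = 0.0485). Leaving out 1 array ended the call in 17 of 24 fits for WRKY51, in 6 for WRKY54 and in 4 for WRKY62, and in none for WRKY55 and WRKY70.

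The effect of hy5-215 on WRKY23 in Pi-deficient roots lay below that of 35S:BBX32-SRDX (-0.64, SE 0.15, adjusted p = 0.0413). Groups of 2 or 3 arrays are too small for a test of single outlying arrays, and none was made.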

How the results depend on the processing

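Of the 167 called member results, 62 kept their call under every alternative and every left-out array: 4 of 16 against WT (WRKY70 in Pi-deficient roots of both lines and in Pi-sufficient 35S:BBX32-SRDX roots, and WRKY54 in Pi-deficient 35S:BBX32-SRDX roots), 20 of 75 for Pi, 0 of 13 for light, 37 of 56 for organ and 1 of 7 interactions. Counts of called members moved by over 1.5 times as follows; the cause was not tested. Each count is given under the alternative, against that reported. Abbreviated here, BBX is 35S:BBX32-SRDX.

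With normexp background correction: hy5-215 against WT roots 2 against 4 (Pi-deficient) and 0 against 2 (Pi-sufficient), BBX against WT Pi-deficient roots 5 against 8, Pi in hy5-215 roots 3 against 5 and shoots 3 against 5, in blue roots 3 against 10 and shoots 8 against 17, in red roots 1 against 3 and shoots 3 against 8, red against blue in Pi-deficient roots 1 against 3 and shoots 4 against 10, light by Pi 0 against 1 in roots and 3 against 0 in shoots, and BBX effect by organ 1 against 5. With the authors' values: Pi in BBX shoots 1 against 2, blue roots 2 against 10, red roots 0 against 3 and red shoots 4 against 8, red against blue roots 1 against 3 (Pi-deficient) and 1 against 0 (Pi-sufficient), and light by Pi in shoots 3 against 0.

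With no filter on dim probes: BBX against WT Pi-sufficient roots 1 against 2, Pi in BBX shoots 1 against 2, blue roots 4 against 10 and red shoots 1 against 8, red against blue Pi-deficient roots 1 against 3 and shoots 3 against 10, light by Pi in roots 0 against 1, and hy5-215 minus BBX Pi-deficient roots 0 against 1. With only the groups compared in the fit: hy5-215 and BBX against WT Pi-sufficient roots 1 against 2 each, Pi in WT shoots of the hy5-215 set 3 against 6, hy5-215 roots 1 against 5, BBX roots 1 against 3 and shoots 1 against 2, blue roots 6 against 10 and red shoots 4 against 8, and red against blue Pi-sufficient roots 1 against 0.

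With quantile normalisation: Pi in hy5-215 shoots 3 against 5 and BBX shoots 1 against 2, light by Pi in roots 2 against 1, and hy5-215 minus BBX Pi-deficient roots 0 against 1. With the median of detected probes Pi in BBX shoots gave 1 against 2, and with the mean of a gene's probes 4 against 2, and red against blue Pi-sufficient roots 1 against 0. With no fold limit: hy5-215 against WT Pi-sufficient roots 5 against 2, Pi in WT roots 12 against 6 in the hy5-215 set and 5 against 2 in the other, and red against blue Pi-deficient roots 5 against 3.

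With the replicate block: Pi in BBX shoots 8 against 2, line by Pi in BBX roots 1 against 0, effect by organ 4 against 0 and 1 against 0 for hy5-215 (Pi-deficient and Pi-sufficient) and 2 against 0 for BBX (Pi-sufficient), and hy5-215 minus BBX Pi-deficient roots 2 against 1. Over all genes these blocked fits called 4.86%, 0.69%, 15.5%, 8.95%, 2.83% and 6.39%, in the same order. In the light-quality set, where replicates of a number share a slide but there are 2 of them, the block gave 4 against 0 for red against blue Pi-sufficient roots (0.965% of all genes) and 3 against 1 for light by Pi in roots (2.5%), and lost WRKY46 in red against blue Pi-deficient shoots. Slide as a random block, added after the data were seen, moved none of 4 organ counts.

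Under normexp 3 members at the background turned: WRKY50 in Pi-sufficient hy5-215 against WT roots (-0.18), WRKY50 for Pi in WT roots of the hy5-215 set (-0.33) and WRKY48 for Pi in blue shoots (-0.062). Scalings moved the median of all genes by -0.484 to 0.366 with the authors' values, -0.289 to 0.216 without the filter, -0.165 to 0.163 with normexp and -0.177 to 0.0465 with quantiles.

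Leaving out 1 array, counts ran, against the line's WT in roots, from 1 to 4 and 1 to 3 for hy5-215 and 4 to 8 and 1 to 2 for BBX (Pi-deficient, Pi-sufficient). For Pi they ran from 2 to 6 in roots of WT of the hy5-215 set and 2 to 6 in hy5-215, 2 to 2 in WT of the BBX set and 0 to 3 in BBX, 5 to 9 under blue and 1 to 3 under red light, and in shoots from 4 to 7, 0 to 5, 7 to 11, 0 to 6, 13 to 18 and 1 to 7 in the same order. For light they ran from 1 to 3 and 0 to 1 in roots and 0 to 10 in Pi-deficient shoots, for organ from 10 to 14 and 14 to 17 in the hy5-215 set and 14 to 16 and 9 to 13 in the other, for light by Pi from 0 to 2 in roots and 0 to 2 in shoots, for the BBX effect by organ from 2 to 6 and the hy5-215 one from 0 to 1 on Pi-deficient medium, and for hy5-215 minus BBX from 0 to 1.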
